A study of Mus musculus with 6 samples.

Results

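NuRD is a chromatin complex that joins nucleosome remodelling to histone deacetylation. This account covers 9 of its subunit genes, from families in which close copies (paralogues) can take the same place. Other subunit genes, among them Chd5 of the CHD family and the pair Hdac1 and Hdac2, are set beside them below. The 9 are Mta1, Mta2, Mta3, Chd3, Chd4, Mbd2, Mbd3, Gatad2a and Gatad2b. They were taken by gene symbol, from a list drawn up with earlier results of these data known, and all 9 were among the 33924 gene rows of the deposited count table and among the 13406 genes that passed the filter on low counts. Gene expression had been measured by RNA sequencing of mouse acute myeloid leukaemia cells that all carried MLL-AF9, a fusion oncogene introduced by retrovirus. The fusion had been put into LSK cells, a bone marrow population rich in stem cells, in 3 libraries (LSK 44, LSK 45 and LSK 46). In the other 3 (GMP 5, GMP 11 and GMP 19) it had been put into granulocyte-macrophage progenitors (GMP), which are committed to the myeloid lineage. Before RNA was taken, the GFP-positive transformed cells had been grown in irradiated C57BL/6 mice that also received wild-type marrow cells, collected from the marrow of dying animals and kept in culture with SCF, IL-3 and IL-6. The libraries therefore represent cultured leukaemia cells, not fresh LSK cells or GMP, and neither the age nor the number of mice or transductions behind each group is given in the labels.

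In NuRD, an MTA protein scaffolds the deacetylases HDAC1 and HDAC2 and the histone-binding proteins RBBP4 and RBBP7. A GATAD2 protein links the CHD motor ATPase to an MBD protein, and through it to the deacetylase part. MBD2, which binds methylated CpG sites, and MBD3, whose affinity for them is weak, exclude each other from a given complex. In blood cells NuRD is known as a partner of lineage factors such as Ikaros and FOG1, and it shares the demethylase LSD1 with the CoREST complex. The series title links a leukaemia's cell of origin to apoptotic priming and to the response to LSD1 inhibitors, and these libraries carry no label of inhibitor treatment.

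Total counts ran from 16640929 (LSK 44) to 33885428 (GMP 11), and each of the 9 genes had at least 494 counts in every library. Expression is given in CPM, counts scaled to a common library size with TMM (a correction for RNA composition), or in CPM per kilobase of transcript (CPM per kb) where genes are compared with each other. Means carry the SD over 3 libraries. A gene was called where edgeR's quasi-likelihood test gave a Benjamini-Hochberg adjusted p below 0.05 over all tested genes, and a positive log2 fold change, given with an approximate SE, means higher in the LSK-derived group. No library was a copy of another, the closest pair within a group having a chi-square of 10.2 per degree of freedom. Separate mice or transductions are not stated in the labels, so the spread behind each p-value is that between these libraries and may be technical.

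The myeloid markers Ptprc, Itgam, Mpo, Elane and Csf1r summed to 1504 to 2527 CPM in the LSK-derived libraries and 744 to 2924 CPM in the GMP-derived ones. GMP 5 stood apart in the granule genes, with Mpo at 13.8 CPM and Elane at 65.5 CPM against at least 316 and 328 CPM elsewhere. It was also the library with the mast cell gene Cpa3 at 88.5 CPM, against 0.157 to 2.87 CPM in the others. The 4 mast cell and basophil markers summed to 35.6 to 37.4 CPM in the LSK-derived libraries and 15.4 to 107 CPM in the GMP-derived ones. Of these 4, only Mcpt8 was called, and in the LSK-derived direction. It was at 29.4 to 31.6 CPM there, against 10.9 to 14.6 CPM in the other group. Both calls among the 9 genes held without GMP 5. Kit was at 183 to 207 CPM in the LSK-derived libraries and 96.3 to 143 CPM in the GMP-derived ones, while Ly6a, which encodes the Sca-1 marker of LSK cells, was at 0.916 to 2.94 and 0.205 to 0.352 CPM. Of the T and NK cell markers, Cd3e and Ncr1 had 0 counts in all 6 libraries, and the 4 of that list summed to at most 0.147 CPM. Of the B cell markers, Pax5 had 0 counts throughout, but Cd79b was at 14.3 to 21.7 CPM in the LSK-derived libraries and 3.36 to 7.51 CPM in the GMP-derived ones (log2 fold change 1.72, adjusted p = 0.00948 in edgeR's quasi-likelihood test). The 4 B cell markers summed to 14.3 to 21.9 and 3.61 to 7.75 CPM. Markers of stroma and endothelium, with Col1a2 at 0 counts, summed to 189 to 325 and 116 to 190.2 CPM, nearly all from Pecam1. The summed level of 6 erythroid and megakaryocyte markers ran from 10.2 to 87.5 CPM in the LSK-derived libraries and from 1.72 to 12.1 CPM in the GMP-derived ones. Itga2b alone was at 9.30 to 73.1 and 0.505 to 10.9 CPM, while the globin genes Hbb-b1 and Hba-a1 reached at most 0.625 CPM. The part of these marker differences in the results below was not tested. In bulk RNA, a change in the share of cells of a type and a change in RNA per cell cannot be told apart.

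Of the 9 genes, 2 were higher in the LSK-derived leukaemias, the scaffold gene Mta1 and the motor gene Chd4, and 0 were higher in the GMP-derived ones. The other 7 did not pass. Over all tested genes the background was 11.8% for a call in the LSK-derived direction and 13.9% in the opposite one (25.7% together). The count of 0 held with DESeq2 and with limma voom, and at an unadjusted p below 0.05 in edgeR's test the counts were again 2 and 0. All 9 differed by less than 2-fold. Their median log2 fold change was 0.13, against 0.01 over all tested genes. A positive sign was found in 8 of the 9, against 6887 of all 13406 tested genes, and the signs of Chd3 and Mbd2 turned in some fits without a library. The median size of the difference regardless of sign was 0.14, against 0.25 over all tested genes. The 9 genes had a higher mean CPM than 53.7% (Gatad2b) to 98.4% (Chd4) of all tested genes. A comparison with genes of like level was not made. The groups did not overlap in 5 of the 9 genes, against 45.4% of all tested genes. Without LSK 44 or without LSK 46 the count of higher genes was 1, Mta1, since Chd4 lost its call.

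**Figure D1:**
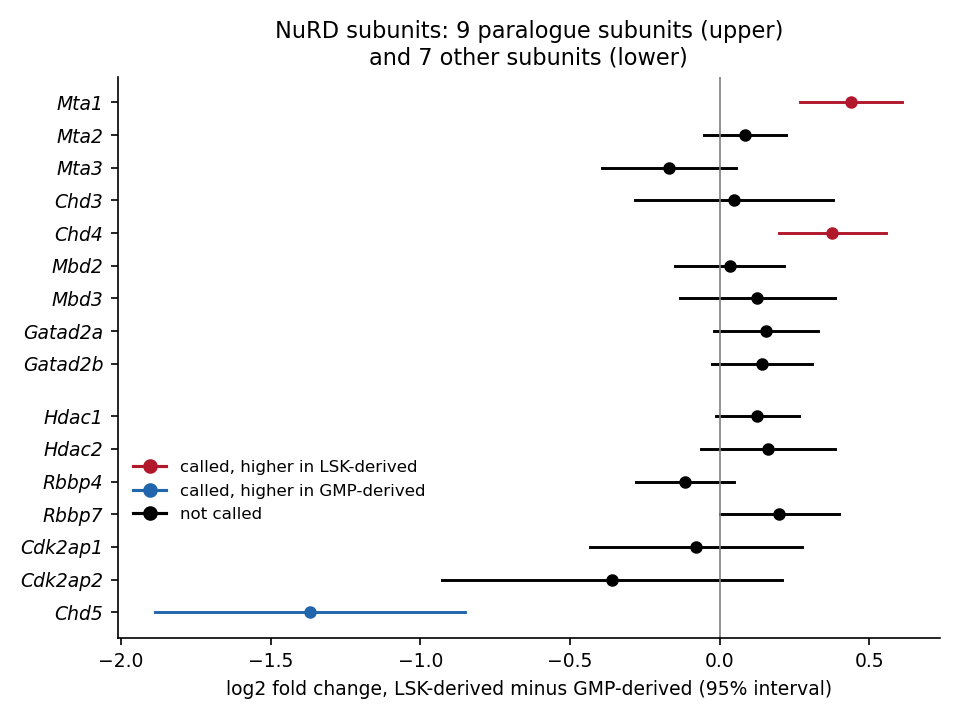
Log2 fold change (LSK-derived minus GMP-derived) of the 9 paralogue subunit genes and of 7 other NuRD subunit genes, with approximate 95% intervals from edgeR's quasi-likelihood test on 3 libraries per group. Among the 9, the intervals of Mta1 (0.27 to 0.61) and Chd4 (0.20 to 0.56) lie above 0 and the other 7 include 0; Chd5, among the other subunits, is the only gene called in the opposite direction.

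The levels of the 9 genes spanned more than an order of magnitude. Per kilobase, Mta2 was the most abundant at 113 ± 3.39 CPM per kb in the LSK-derived libraries and 106 ± 1.19 CPM per kb in the GMP-derived ones, followed by Chd4 (98.2 ± 6.34 and 75.6 ± 4.06 CPM per kb) and Mbd3 (67.8 ± 7.49 and 62.1 ± 6.13 CPM per kb). In the LSK-derived group Mta1 (44.1 to 48.1 CPM per kb) and Mbd2 (42.0 to 47.6 CPM per kb) came next and overlapped each other. In the GMP-derived group Mbd2 (40.8 to 45.5 CPM per kb) stood above Mta1 (31.5 to 35.5 CPM per kb) in every library. Gatad2a (28.8 ± 1.90 and 25.9 ± 1.04 CPM per kb) and Chd3 (25.2 ± 3.71 and 24.4 ± 3.41 CPM per kb) overlapped in both groups. Mta3 (10.8 ± 1.17 and 12.2 ± 0.104 CPM per kb) and Gatad2b (4.36 ± 0.0645 and 3.96 ± 0.0966 CPM per kb) were the least abundant. These levels rest on the length of all exons of a gene joined together. With the longest transcript as the length, a choice made after the data were seen, Mbd2 lay above Mta1 in the LSK-derived group too (52.7 to 59.7 against 44.2 to 48.2 CPM per kb), Chd4 and Mbd3 overlapped in the GMP-derived group, and Gatad2a (28.8 to 32.6 CPM per kb) no longer overlapped Chd3 (20.9 to 27.6 CPM per kb) in the LSK-derived group.

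**Figure D2:**
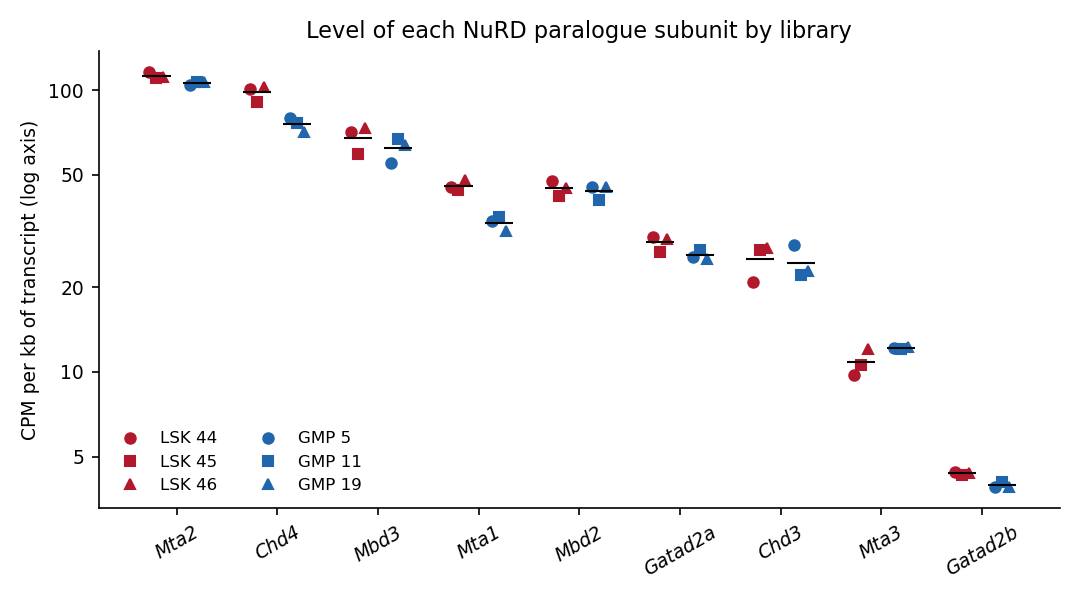
Level of each of the 9 genes in every library, in CPM per kb of transcript on a log axis, ordered by the LSK-derived mean; red symbols are LSK-derived and blue symbols GMP-derived libraries, and black bars are group means. Red and blue symbols are set apart for Chd4 and Mta1, and the order runs from Mta2 above 100 CPM per kb to Gatad2b near 4 CPM per kb in the GMP-derived libraries.

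Among the MTA scaffold genes, which hold the deacetylases, Mta1 was the 1 that passed. The LSK-derived libraries, in the order 44, 45 and 46, had Mta1 at 128, 125 and 136 CPM. The GMP-derived ones, in the order 5, 11 and 19, had 96.8, 100.4 and 89.2 CPM, and both orders are kept from here on. Every LSK-derived library lay above every GMP-derived one, a 1.36-fold difference (log2 fold change 0.44 ± 0.07, adjusted p = 0.00660 in edgeR's quasi-likelihood test). The call held in all 13 alternative fits, including each that left out a library, with adjusted p from 1.33e-06 to 0.0319. Its difference was larger in size than that of 68.4% of all tested genes. Mta2, the most abundant scaffold gene, was at 365, 346 and 348 CPM in the LSK-derived libraries and 328, 335 and 335 CPM in the GMP-derived ones. These groups did not overlap either, but the difference was small and did not pass (log2 fold change 0.09, 95% interval -0.05 to 0.22, adjusted p = 0.319). Mta3, which in other tissues has been tied to a partnership with BCL6, was the only one of the 9 with a negative sign, at 29.9, 32.5 and 36.9 CPM against 37.2, 37.0 and 37.6 CPM. LSK 44 was lowest, and LSK 46 at 36.95 CPM lay just under GMP 11 at 36.96 CPM. Mta3 did not pass (log2 fold change -0.17, 95% interval -0.39 to 0.05, adjusted p = 0.229).

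The make-up of the scaffold pool was described on the per-kilobase scale. Mta1 made up 27.1% ± 0.921 of summed MTA CPM per kb in the LSK-derived libraries and 22.2% ± 1.10 in the GMP-derived ones, and Mta3 made up 6.401% ± 0.680 and 8.02% ± 0.169. The ratio of Mta1 to Mta3 on that scale was 4.62, 4.15 and 3.98 against 2.81, 2.94 and 2.56, a 1.53-fold difference without overlap. The ratio of Mta1 to Mta2 was 0.388, 0.400 and 0.433 against 0.327, 0.332 and 0.295, also without overlap. That of Mta3 to Mta2 was lower in each LSK-derived library (0.0839 to 0.109) than in each GMP-derived one (0.113 to 0.116). Each of the 3 ratios gave p = 0.1 in an exact two-sided permutation test, the smallest that 3 against 3 libraries allow, and 0.2 after Benjamini-Hochberg adjustment over 10 ratios and totals. Since no p under 0.05 could be reached, none passed. Summed MTA expression was 169 ± 3.61 against 152 ± 2.04 CPM per kb, 1.11-fold higher without overlap (exact permutation p = 0.1, adjusted 0.2).

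**Figure D3:**
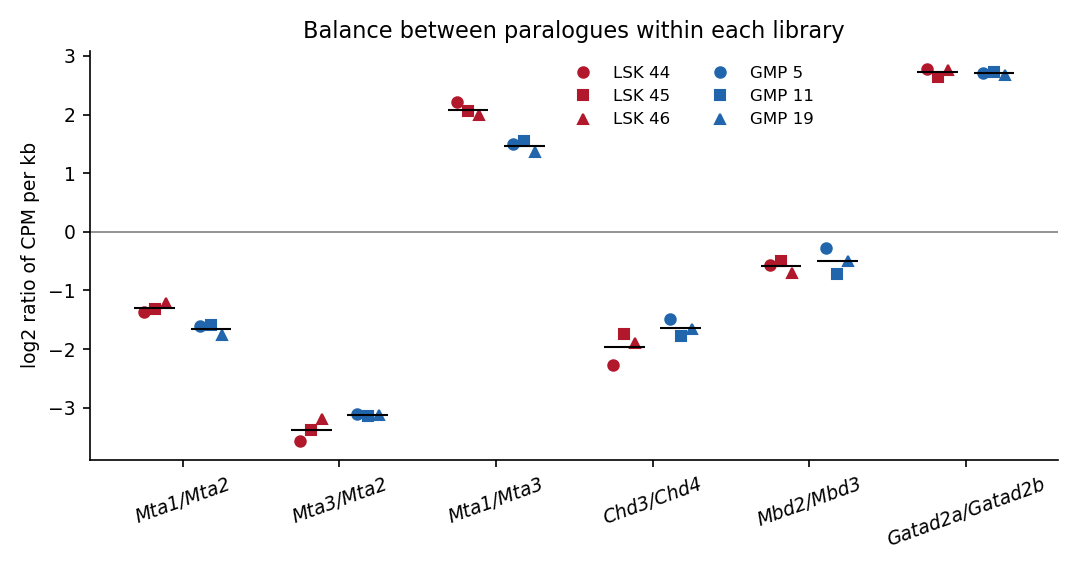
Log2 ratio of 2 paralogues of a family within each library, on CPM per kb, for 6 pairs; red symbols are LSK-derived and blue symbols GMP-derived libraries, and black bars are group means. The 3 pairs of MTA genes separate the groups, with Mta1/Mta3 farthest apart (means of 2.08 and 1.47), while Chd3/Chd4, Mbd2/Mbd3 and Gatad2a/Gatad2b overlap.

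CHD4 and CHD3 are the ATPases that slide nucleosomes. Chd4 was at 677, 611 and 690.2 CPM against 533, 512 and 479 CPM. The groups did not overlap, and the difference was 1.30-fold (log2 fold change 0.38 ± 0.08, adjusted p = 0.0134 in edgeR's quasi-likelihood test). Its call was lost without LSK 44 (adjusted p = 0.0570) and without LSK 46 (0.0591), in a range from 3.28e-05 over its 13 alternatives, and its log2 fold change stayed between 0.34 and 0.43. Chd3 varied more within the groups than between them. It was at 152, 196 and 200.3 CPM in the LSK-derived libraries and at 205, 161 and 165 CPM in the GMP-derived ones, so that LSK 44 was the lowest and GMP 5 the highest of all 6. Chd3 did not pass, and its interval was the widest of the 9 genes (log2 fold change 0.05, 95% interval -0.28 to 0.38, adjusted p = 0.832). The sign turned negative in the fits without LSK 45, LSK 46 or GMP 11.

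The ratio of Chd3 to Chd4 on CPM per kb was 0.258 ± 0.0460 in the LSK-derived libraries and 0.322 ± 0.0332 in the GMP-derived ones. LSK 45 at 0.297 lay above GMP 11 at 0.290, so the groups overlapped (exact permutation p = 0.2, adjusted 0.286). Summed CHD3 and CHD4 expression was 123 ± 6.33 against 99.97 ± 6.99 CPM per kb, with every LSK-derived library above every GMP-derived one (1.23-fold, exact permutation p = 0.1, adjusted 0.2). Chd4 supplied 79.6% ± 2.95 of that sum in the LSK-derived libraries and 75.7% ± 1.90 in the GMP-derived ones.

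Of the 9 genes, 6 have promoter sequences in the RefSeq table for GRCm38.p6, a later build than the mm9 of the counts (Mta1, Mta2, Chd4, Mbd3, Gatad2a and Gatad2b). The stretches of 250 bases before the annotated start of the called genes Mta1 and Chd4 are shown with that of Mta2, the abundant paralogue that did not pass, as sequence context for the genes the results turn on. For Chd4, which has 2 annotated starts, the first listed is shown. Capitals mark GC boxes (GGGCGG on either strand), the motif bound by SP1 family factors.
Mta1 (chr12:113098028-113098277, plus strand): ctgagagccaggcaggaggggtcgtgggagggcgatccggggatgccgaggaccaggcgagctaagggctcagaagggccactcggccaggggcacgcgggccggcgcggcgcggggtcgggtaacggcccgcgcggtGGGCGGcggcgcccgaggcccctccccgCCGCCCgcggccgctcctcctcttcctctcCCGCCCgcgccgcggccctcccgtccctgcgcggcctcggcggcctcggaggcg
Chd4 (chr6:125095731-125095980, plus strand): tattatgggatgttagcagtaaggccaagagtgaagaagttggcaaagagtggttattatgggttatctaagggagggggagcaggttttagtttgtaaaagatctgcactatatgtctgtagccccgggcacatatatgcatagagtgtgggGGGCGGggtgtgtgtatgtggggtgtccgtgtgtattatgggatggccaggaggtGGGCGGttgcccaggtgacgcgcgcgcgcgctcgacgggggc
Mta2 (chr19:8941670-8941919, plus strand): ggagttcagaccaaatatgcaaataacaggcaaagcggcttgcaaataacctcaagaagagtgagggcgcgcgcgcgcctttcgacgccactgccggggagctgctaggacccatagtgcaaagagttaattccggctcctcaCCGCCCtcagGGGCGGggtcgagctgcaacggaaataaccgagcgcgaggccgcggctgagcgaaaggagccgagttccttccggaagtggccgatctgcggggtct
The stretch of Mta1 held 3 GC boxes and those of Chd4 and Mta2 held 2 each, while that of the second start of Chd4, not shown, held 3. Over windows of 300 bases, from 250 before to 50 after a start, 35.7% of all 32851 promoter windows held a GC box, and so did all windows of the 6 genes. Mta1 had 50 CpG sites in its window, more than 99.1% of all windows had, and Mta2 had 30. The windows of Chd4 had 17 and 29, those of Mbd3, Gatad2a and Gatad2b 16 to 26, and the median over all windows was 7. An ETS motif (CCGGAAG, either strand) was in the window of Mta2 and in 1 window of Gatad2a, against 8.86% of all windows. CCAAT on either strand was in a window of each of the 6 genes except Mta1 and Mta2, against 37.4% of all windows. E-box letters (CACGTG) were in none of them, against 7.15%. These matches describe the sequence and no binding was measured.

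The MBD subunits, which bring NuRD to DNA, did not pass in either gene. Mbd3 was at 133, 111 and 137 CPM against 103, 126 and 119.5 CPM. LSK 45 lay among the GMP-derived values and GMP 5 was the lowest (log2 fold change 0.13, 95% interval -0.13 to 0.39, adjusted p = 0.436). Mbd2 was at 117, 103 and 110.2 CPM against 111, 99.9 and 111 CPM, with full overlap (log2 fold change 0.03, 95% interval -0.15 to 0.22, adjusted p = 0.780). The intervals leave room for a difference of up to 0.39 on the log2 scale in Mbd3 and 0.22 in Mbd2. The ratio of Mbd2 to Mbd3 on CPM per kb was 0.665 ± 0.0480 and 0.712 ± 0.107 (exact permutation p = 0.7, adjusted 0.778), with the highest value in GMP 5 (0.822) and the lowest in GMP 11 (0.608). Mbd3 was the more abundant of the pair per kilobase in every library. Summed expression of the pair was 113 ± 9.87 and 106 ± 4.52 CPM per kb (exact permutation p = 0.3, adjusted 0.375).

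The GATAD2 bridging subunits both had a small positive difference that did not pass. Gatad2a was at 163, 144 and 161 CPM against 138, 147 and 136 CPM, with LSK 45 below GMP 11 (log2 fold change 0.15, 95% interval -0.02 to 0.33, adjusted p = 0.167). Gatad2b was at 33.99, 33.05 and 33.78 CPM against 29.96, 31.32 and 30.11 CPM, without overlap (log2 fold change 0.14, 95% interval -0.02 to 0.31, adjusted p = 0.182). The ratio of Gatad2a to Gatad2b on CPM per kb was 6.60 ± 0.341 and 6.55 ± 0.123, the smallest difference among the 6 ratios (exact permutation p = 0.9, adjusted 0.9). The 2 genes together were at 33.2 ± 1.97 and 29.9 ± 1.13 CPM per kb (exact permutation p = 0.2, adjusted 0.286).

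Of the 7 other NuRD subunit genes, 0 were higher in the LSK-derived libraries, 1 was lower and 6 did not pass in edgeR's quasi-likelihood test (1 and 1 at an unadjusted p below 0.05, and 0 and 1 with DESeq2 and with limma voom). Their median log2 fold change was -0.08, and over all tested genes 11.8% were called higher and 13.9% lower. The lower gene was Chd5, another NuRD ATPase known mainly from neurons and testis, at 3.08, 3.61 and 4.50 CPM in the LSK-derived and 8.81, 8.28 and 11.9 CPM in the GMP-derived group (log2 fold change -1.37 ± 0.22, adjusted p = 0.00614). It was thus called in the direction opposite to Chd4, at a low level: 0.393 ± 0.0753 and 1.02 ± 0.204 CPM per kb. In the reference annotation its exons overlap those of the antisense gene Gm13645. The deacetylase genes did not pass. Hdac1 was at 172 ± 3.64 and 157 ± 3.51 CPM without overlap (log2 fold change 0.13, 95% interval -0.01 to 0.26, adjusted p = 0.153), and Hdac2 at 172 ± 8.06 and 154 ± 17.1 CPM (adjusted p = 0.250).

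The histone-binding subunit genes had opposite signs, and neither passed. Rbbp7 was at 488 ± 23.9 and 425 ± 38.2 CPM (log2 fold change 0.20, adjusted p = 0.126; called only by limma voom with sample weights, 0.0484) and Rbbp4 at 465 ± 15.7 and 504 ± 30.1 CPM (log2 fold change -0.12, adjusted p = 0.256). Exons of Rbbp4 overlap those of Sync, and exons of Rbbp7 those of Txlng, on the other strand. Cdk2ap1, which encodes the small subunit DOC1, was at 31.4 ± 1.93 and 33.2 ± 6.87 CPM (adjusted p = 0.736). Its relative Cdk2ap2 was at 68.0 ± 9.53 and 87.2 ± 27.1 CPM (log2 fold change -0.36, adjusted p = 0.306). GMP 5, at 60.04 CPM, stood below the other two GMP-derived libraries in Cdk2ap2, and without it that gene was called (log2 fold change -0.58, adjusted p = 0.0481).

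Genes of proteins that bind or recruit NuRD were called in both directions, as were 11.8% (higher) and 13.9% (lower) of all tested genes. Of 13 tested genes on that list, 3 were higher in the LSK-derived libraries, 1 was lower and 9 did not pass, with a median log2 fold change of 0.15. The counts were 4 and 1 with DESeq2 and with limma voom. On leaving out 1 library, 2 were higher, or 6 without GMP 5, and 1 to 2 were lower. Of the list of 21 genes, 1 was not matched in the table and 7 were too low to be tested. Zfp687, a zinc finger gene of the ZMYND8-containing module, was at 75.5, 78.0 and 87.3 CPM against 48.9, 55.6 and 51.6 CPM (log2 fold change 0.63 ± 0.09, adjusted p = 0.00368). The groups did not overlap, and its exons overlap those of Pi4kb. The genes of the PWWP2 proteins, which join the MTA1-containing deacetylase part without the CHD motor, differed in opposite directions. Pwwp2a was at 48.7 ± 2.25 and 39.1 ± 3.13 CPM (log2 fold change 0.32 ± 0.09, adjusted p = 0.0364), a call that held without GMP 5 but was lost on leaving out any other library (adjusted p up to 0.107). Pwwp2b was at 14.6, 18.1 and 15.8 CPM against 27.7, 32.6 and 41.5 CPM (log2 fold change -1.07 ± 0.17, adjusted p = 0.00557). Bcl11a, a repressor gene that recruits NuRD to globin loci, was the remaining called gene of this list and had the smallest p on it, at a low level. It was at 2.72, 2.20 and 3.92 CPM against 0, 0.0891 and 0.0586 CPM, the latter from 5 counts in all (adjusted p = 0.00124).

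Of the genes that did not pass, 3 were named after their values were seen. Kdm1a, which encodes LSD1, was at 113, 105 and 119.8 CPM in the LSK-derived libraries, while the GMP-derived ones were at 111, 94.1 and 79.9 CPM (log2 fold change 0.25 ± 0.12, adjusted p = 0.185; called without GMP 5, 0.0400). Zfpm1, which encodes FOG1, was at 20.3, 15.0 and 48.7 CPM against 11.02, 2.61 and 2.93 CPM. These groups did not overlap and LSK 46 was far above the others, but edgeR's test did not call the gene (log2 fold change 2.36 ± 0.72, adjusted p = 0.0552; called by DESeq2, by limma voom, with and without sample weights, and without GMP 5, with the lowest adjusted p at 0.0161). Ikzf1, which encodes Ikaros, was at 411 ± 29.8 and 385 ± 50.4 CPM (adjusted p = 0.568).

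Other chromatin complexes also held called genes, beside 11.8% higher and 13.9% lower over all tested genes. Whether the shares of these complexes differ from those or from the shares of NuRD was not tested. Of 14 SIN3 complex genes 2 were higher in the LSK-derived libraries and 0 lower, against 1 lower at an unadjusted p below 0.05 and 1 by DESeq2. They were Fam60a (40.6 ± 2.60 against 15.7 ± 3.12 CPM, adjusted p = 0.00180) and Arid4b (69.9 ± 5.28 against 51.4 ± 1.88 CPM, adjusted p = 0.00940), whose exons overlap those of 3010003L21Rik and Ggps1 on the other strand. Of 6 NCoR and SMRT genes, Hdac3, the deacetylase of that complex, was higher (126 ± 4.05 against 92.4 ± 1.64 CPM, adjusted p = 0.00330) and the corepressor gene Ncor1 was lower (429 ± 12.3 against 553 ± 12.0 CPM, adjusted p = 0.00613). Hdac3 was thus called where Hdac1 and Hdac2 were not, and the difference between those changes was not tested. Of 22 BAF and PBAF genes 4 were higher and 3 lower (7 and 4 at an unadjusted p below 0.05, and 6 and 3 with DESeq2). Among those called were Bcl7c (26.3 ± 3.45 against 13.1 ± 0.677 CPM), Smarcd1 (68.0 ± 6.17 against 44.4 ± 4.01 CPM) and Arid1b (178 ± 22.0 against 321 ± 41.0 CPM, lower in the LSK-derived libraries). Without single libraries the counts called by edgeR ran from 2 (without LSK 44 or LSK 46) to 5 and from 1 (without LSK 44, LSK 46 or GMP 19) to 3.

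Of 18 INO80, SRCAP and EP400 genes 3 were higher (Ruvbl1, Ruvbl2 and Vps72) and 0 lower, beside 11.8% and 13.9% of all tested genes. The same counts were found at an unadjusted p below 0.05, with DESeq2 and with limma voom. Each of the 3 calls was lost in 4 of the 6 fits without a library: all of them without LSK 44 and without LSK 46, Ruvbl1 also without GMP 11 or GMP 19, Ruvbl2 without GMP 5 or GMP 19, and Vps72 without GMP 5 or GMP 11. Of 9 tested ISWI genes Rsf1 was higher and 0 lower (2 lower at an unadjusted p below 0.05 and 1 by DESeq2), and the call of Rsf1 was lost in 5 of 6 fits without a library. Relatives of the NuRD motors outside NuRD also differed. Of 7 other CHD genes, Chd6 (63.8 ± 5.58 against 42.0 ± 4.69 CPM, adjusted p = 0.00939) and Chd1 (185 ± 12.5 against 148 ± 15.2 CPM, adjusted p = 0.0472) were higher. The call of Chd1, named to complete the count after its values were seen, was lost with limma voom (adjusted p = 0.0504) and in 4 of the 6 leave-one-out fits, up to 0.150 without LSK 44. In the same family Chd7 (127 ± 12.2 against 205 ± 4.97 CPM, adjusted p = 0.00227) and Chd9 (261 ± 19.2 against 372 ± 35.6 CPM, adjusted p = 0.00974) were lower.

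**Figure D4:**
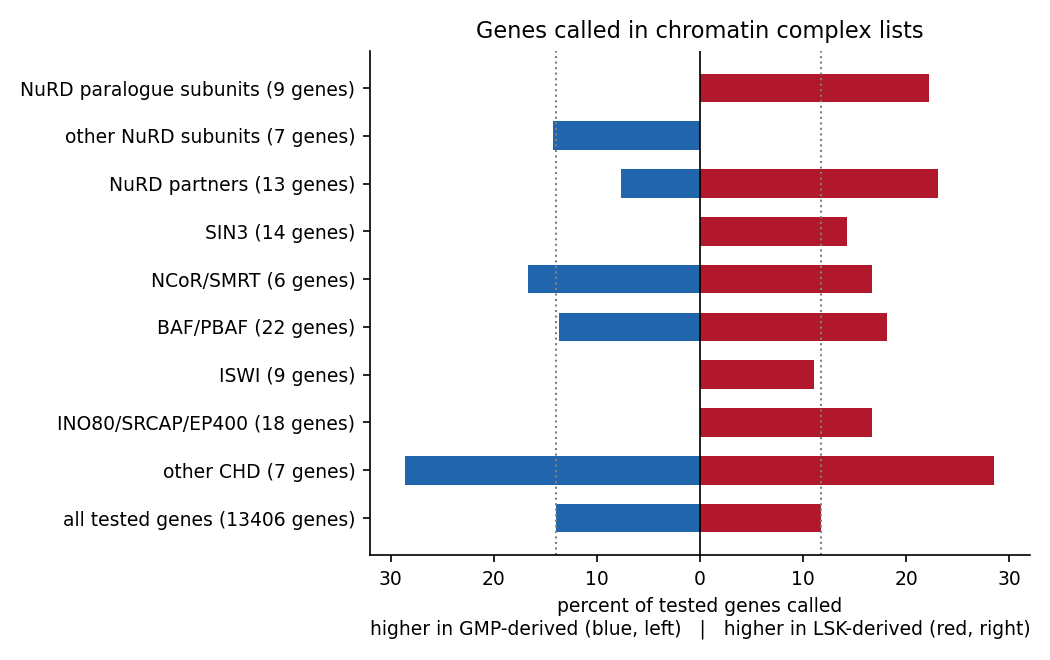
Percent of the tested genes of each list called higher in the LSK-derived (red, to the right) or in the GMP-derived libraries (blue, to the left) by edgeR's quasi-likelihood test, with dotted lines at the shares over all tested genes (11.8% and 13.9%). The 9 NuRD paralogue subunits have 2 called genes to the right and 0 to the left, and with 6 to 22 genes in a list 1 gene moves a bar by several percent.

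The patterns of Mta1 and Chd4 over the 6 libraries were shared by many genes. The closest to Mta1 in log2 CPM were Prcc (Pearson r = 0.999, 63.5 and 52.4 CPM in the LSK-derived and GMP-derived means) and Tspan4 (r = 0.998, 49.7 and 35.2 CPM), and 542 genes reached r of at least 0.95. The closest to Chd4 were Dnajc6 (r = 0.999, 11.1 and 0.276 CPM) and Gfpt1 (r = 0.997, 67.8 and 48.4 CPM), among 448 such genes. These values describe 6 libraries in 2 groups, and any gene that separates the groups with little spread within them scores high.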

How the data were processed

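RNA had been isolated with TRIzol and libraries made with the TruSeq RNA kit, per the labels' protocols. What the authors deposited are unnormalized counts of reads by gene symbol, 1 column for each library. STAR 2.4, HTSeq 0.6.1, DESeq2 and build mm9 are named, with no role or order, per the submitters' processing notes. Annotation and strand setting are not given in these sources, so how reads of overlapping genes were counted is not known.

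The test was edgeR 4.0.16's quasi-likelihood F test under R 4.3.3 (filterByExpr, TMM, glmQLFit with robust estimation, glmQLFTest, no covariate) on all 6 libraries, 3 per group. The approximate SE, from which the 95% intervals follow, is the size of the log2 fold change over the root of F. CPM per kb divides by the exon union of GENCODE M21 basic transcripts (GRCm38), used for lengths and exon overlap only; 97.7% of tested genes had a length. Ratios and totals were tested by exact two-sided permutation over 20 assignments. Alternatives used DESeq2 1.42.0, limma 3.58.1, other scalings and filters, and each library left out.

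The members and gene lists were chosen with earlier results of these data known. Genes named are the 9 members, the 7 other subunits and up to 3 called genes per other list by smallest p, Bcl11a included. Added to these are called partners with a mean of at least 5 CPM in a group, the markers, and the 2 genes closest in pattern to each called member. Chd1, Kdm1a, Zfpm1 and Ikzf1 fall outside that rule and were named after their values were seen. The results of 1 further gene list and of 1 marker are not reported here.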

Additional observations from a re-analysis of the deposited data

How the results depend on the processing

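No paired analysis was possible because the groups share no replicate number in the labels. With 3 libraries per group, the exact permutation tests of ratios and totals cannot go below p = 0.1. For differences near 1.1-fold, as in Gatad2a and Gatad2b, the 95% intervals included 0. Median shifts over all genes between scalings were at most 0.03 on the log2 scale.

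Over all genes, 1577 were called for the LSK-derived and 1867 for the GMP-derived group; without LSK 44 the counts were 857 and 973, and without LSK 46 they were 770 and 980, the lowest and highest of the fits without a library given as 770 to 1523 and 973 to 1944. The 9 members had 1 to 2 higher and 0 lower over those fits. The 7 other subunits had 0 higher, or 1 (Rbbp7) with limma voom and sample weights, and 1 to 2 lower without a library (Cdk2ap2 joined Chd5 without GMP 5).

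Signs turned in uncalled genes with values near 0. Chd3 had log2 fold changes of -0.0048, -0.020 and -0.018 without LSK 45, LSK 46 or GMP 11, up to 0.17 without LSK 44. Mbd2 had -0.0076 and -0.016 without LSK 44 or GMP 11 (up to 0.081), Ikzf1 -0.018 without GMP 5 (up to 0.15), and Cdk2ap1 0.089 without GMP 5 (down to -0.20) and 0.00061 with limma voom and sample weights. The log2 difference in Gatad2a/Gatad2b was 0.011 and ran from -0.014 to 0.055 without a library, and that in Mbd2/Mbd3 was -0.091 and ran from -0.201 to 0.017. The other 4 ratios and the 4 totals kept their sign in every alternative, those with the longest transcript as length (chosen after the data were seen), DESeq2 size factors or 1 CPM added included. For named genes, 36 values lost and 7 gained a call, and the cause was not tested.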
